A study of Homo sapiens with 8 samples.

Results

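The S100 family of the epidermis was examined in cultured human keratinocytes as a group of 10 genes, S100A2, S100A4, S100A6, S100A7, S100A8, S100A9, S100A10, S100A11, S100A14 and S100A16. The genes were chosen by name, as the S100 genes known from epidermis, out of 17131 genes in the expression table. Earlier results of these data were known when they were chosen. All 10 had enough reads to be tested. HaCaT is an immortalised keratinocyte line of human skin, and keratinocytes make up most of the epidermis. All 8 libraries came from HaCaT cells stimulated for 24 h with M5, oncostatin M, TNF-α, IL-1α, IL-17A and IL-22 (5 cytokines, 10 ng/mL each) in combination, which is used to model psoriatic keratinocytes. OTS514, an inhibitor of the kinase TOPK (gene PBK), was used at 10 nM from 12 h before M5 in the inhibitor group. Of the 8 libraries, 4 are titled M5_O5 and 4 are titled M5, and no unstimulated culture was analysed here.

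The title M5_O5 and the treatment recorded with it contradict each other. By title these would be the inhibitor libraries, but their recorded treatment is none, and TOPK inhibitor is recorded for M5. Titles are used here as the group names, and every direction below is from title to title and not from untreated to treated. The labels do not say that replicates came from separate cultures, so the p-values measure the spread between these libraries, which may be technical.

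S100 proteins are small calcium sensors that carry a pair of EF-hand motifs, form dimers and, on binding calcium, expose a surface that docks onto target proteins. Many of their genes lie together on the long arm of chromosome 1, beside the genes of the cornified envelope. In psoriatic epidermis S100A7, S100A8 and S100A9 are known as antimicrobial and inflammatory proteins that keratinocytes make in quantity under IL-17 and IL-22. Other members work mostly inside the cell or at its membrane, such as S100A10 and S100A11, which bind annexins.

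The 10 genes took between 1.46% and 1.82% of all counts in a library. Total counts ran from 13708055 to 16922693 per library, and the smallest total belonged to M5 replicate 1. Keratinocyte markers were all expressed, with 16 of 16 above a mean of 1 CPM (counts relative to the library size as scaled by TMM). Of 12 neutrophil and monocyte markers, PTPRC and CSF3R had no count in any library, and MPO and ELANE were not analysed here. The list summed to 226 to 243 CPM in M5_O5 and 275 to 323 CPM in M5, without overlap, and 3 of its genes had a mean above 1 CPM, S100A12, CD68 and CD14. Lymphocyte markers summed to at most 0.588 CPM in any library.

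Levels of different genes were compared in TPM, which divides counts by transcript length. S100A8 and S100A9, the subunits of calprotectin, a metal-binding heterodimer, stood at the top of the family. S100A8 averaged 45600 ± 2270 TPM (SD, n = 4) in M5_O5 and 53900 ± 1850 in M5, and S100A9 averaged 44900 ± 3780 and 45000 ± 3940. The ranges of these genes overlapped in M5_O5 and did not overlap in M5. S100A7 (psoriasin), an antimicrobial zinc-binding protein, came next at 20300 ± 3570 and 27000 ± 4510 TPM. S100A6 (calcyclin), at 8010 ± 240 and 7690 ± 330 TPM, and S100A11, at 4710 ± 361 and 5710 ± 344 TPM, followed in both groups without overlap between neighbours.

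S100A2 and S100A10 were not separable in level, at 2100 ± 261 and 1970 ± 171 TPM in M5_O5, and 2290 ± 139 and 2300 ± 164 TPM in M5. S100A14 lay lower, at 1070 ± 40.9 and 951 ± 55.1 TPM. S100A16 averaged 528 ± 42.7 TPM in M5_O5 and 533 ± 9.86 in M5. S100A14 and S100A16 are relatives with an EF-hand that has lost residues needed for calcium. S100A4, known from mesenchymal and metastatic cells, was the exception in this family, at 17.4 ± 3.32 and 20.4 ± 5.65 TPM, and rested on only 27 to 47 reads per library.

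The TPM order at the top depends on transcript length. The FPKM values imply an effective length, the length of transcript that a fragment can start in, of 84.7 to 116.4 bases for the main S100A8 transcript and 234.5 to 272.8 bases for that of S100A9. In plain counts S100A8 had 0.359 to 0.548 of the S100A9 count in a library, while in TPM the ratio was 0.905 to 1.32. Nearly all reads of each member were assigned to 1 transcript, with a share of 93.3% for S100A2, 94.9% for S100A16 and more for every other member. No member had a second transcript with at least 5% of its counts over all libraries. Among transcripts with at least 1%, 13 shares in 5 members (S100A2, S100A6, S100A8, S100A14 and S100A16) were compared, and 0 reached the smallest p-value that the exact permutation test allows. The second transcript of S100A16 averaged 5.04% of its counts in M5_O5 and 4.41% in M5 (exact permutation p = 0.0571, not adjusted).

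**Figure D1:**
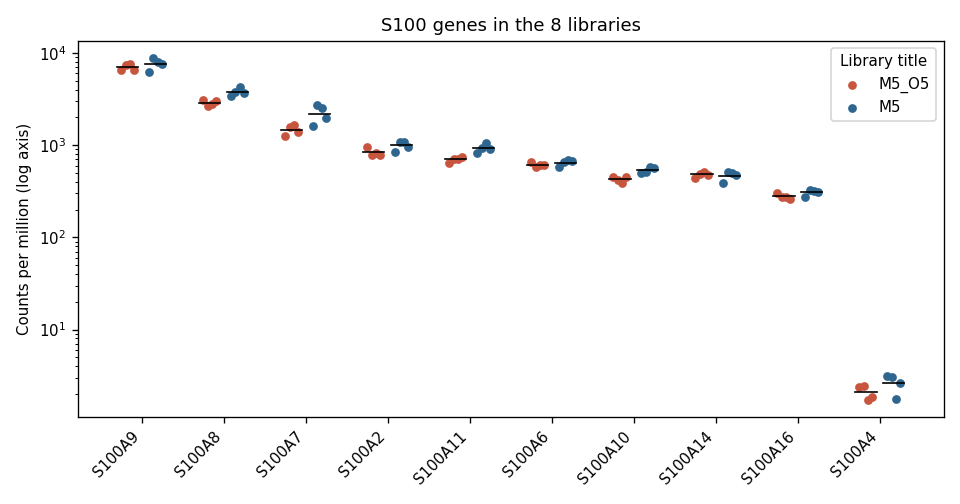
CPM of the 10 S100 genes on a log axis, with 1 point per library, M5_O5 in red and M5 in blue, and a black line at the mean of each group of 4. S100A9 was highest in counts, with 6201 to 8891 CPM, and S100A4 lay far below the others at 1.72 to 3.14 CPM.

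The comparison of the libraries titled M5_O5 with those titled M5 asked which members differed with the inhibitor. Of the 10 genes, 5 were lower in M5_O5 and 0 were higher (edgeR's quasi-likelihood test with Benjamini-Hochberg adjustment, adjusted p-value under 0.05). S100A7, S100A8, S100A10, S100A11 and S100A2 were lower, and S100A4, S100A6, S100A9, S100A14 and S100A16 did not pass. Of the 12434 genes tested, 17.6% were called lower and 19.5% higher. None of the members changed 2-fold, which 3.2% of all genes did with an adjusted p-value under 0.05. The median log2 fold change of the 10 genes was -0.29, against 0.01 over all genes tested.

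Abundant genes tended to be lower in M5_O5. Among the 104 genes with at least 1000 CPM the median log2 fold change was -0.22 and 86.5% were below 0, and among the 1999 genes with 100 to 1000 CPM it was -0.13 and 76.0% were below 0. All members but S100A4 lie in these ranges. When the trend with expression level was removed, 4 members were called lower and 1 higher, where 14.7% and 16.3% of all genes were called. S100A7, S100A10 and S100A11 were among the 4, joined by S100A4, whereas S100A8 and S100A2 were not called and S100A14 was called higher. Scaling by library size alone shifted the median of all genes to 0.13 and called 8.11% of them lower and 31% higher. Under it S100A7, S100A8, S100A10 and S100A11 were called lower, and S100A2 was not.

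**Figure D2:**
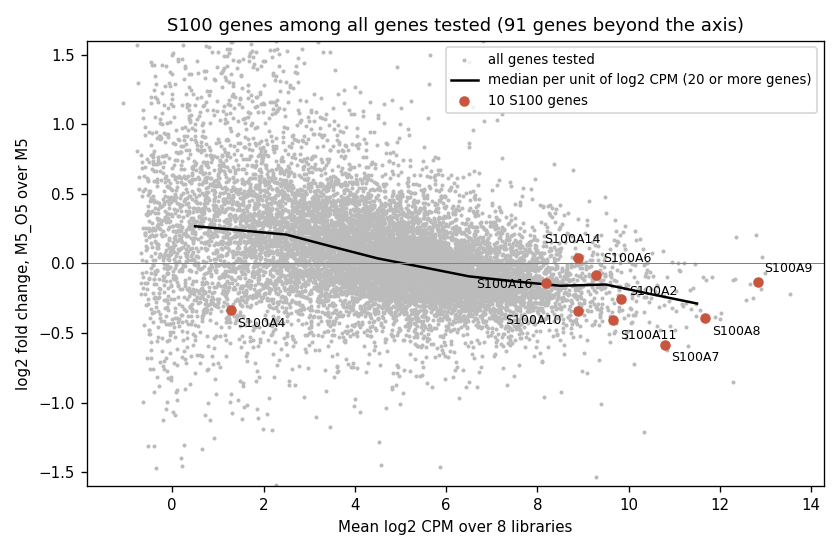
log2 fold change of M5_O5 over M5 against the mean log2 CPM over the 8 libraries for the 12434 genes tested (grey), with the median per unit of log2 CPM as a black line and the 10 S100 genes in red; 91 genes lie beyond the axis. The median falls as expression rises. S100A4, S100A7, S100A10 and S100A11 are among the members below it, and S100A14 lies above it. Too few genes are as abundant as S100A9 for the line to reach it.

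The summed level of the 16 keratinocyte markers moved the same way as the members. It was 22800 to 25700 CPM in M5_O5 and 27900 to 31300 in M5, without overlap. Of the 16, 9 were lower and 1 higher, beside 17.6% and 19.5% of all genes tested. KRT14, a keratin of basal keratinocytes and 1 of the 3 most abundant of these markers, fell by 0.40 on the log2 scale (SE 0.073, adjusted p = 0.000868, edgeR's quasi-likelihood test), while KRT17 and KRT6A did not pass (adjusted p = 0.393 and 0.191 in the same test). KRT14 was not called with the expression trend removed. In such bulk libraries fewer cells of a type and less RNA per cell cannot be told apart. What part the trend with expression level and the keratinocyte markers had in the members' differences was not tested.

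S100A7 had the largest fold change of the 10 under TMM scaling. Its levels were 1257, 1576, 1659 and 1375 CPM in M5_O5 replicates 1 to 4, and 1604, 2702, 2504 and 1982 CPM in M5 replicates 1 to 4. The groups overlapped through M5 replicate 1 alone, which lay below the highest M5_O5 library. The log2 fold change was -0.58 (95% interval -0.87 to -0.29, adjusted p = 0.00391 in edgeR), which puts M5_O5 at 66.7% of M5. With the expression trend removed it was -0.38 (adjusted p = 0.0139), and without M5 replicate 1 it was -0.71 (adjusted p = 4.71e-05), both from edgeR. The two-sided exact permutation test on the 8 values gave p = 0.0571, where 0.0286 is the smallest that 4 against 4 libraries allow.

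S100A7A (koebnerisin), a close copy of S100A7, is not among the 10 but shares much of its sequence, so the division of reads between the copies is uncertain. S100A7A alone stood at 516.1, 634.0, 598.7 and 603.5 CPM in M5_O5 and 669.9, 796.6, 771.8 and 785.9 CPM in M5. All M5 libraries were above all M5_O5 libraries, and the log2 fold change was -0.36 (SE 0.073, adjusted p = 0.00166, edgeR). When the counts of both copies were summed, a sum that was chosen after the data were seen and that does not depend on the division, it was -0.52 (SE 0.116, adjusted p = 0.00299, edgeR). The summed CPM of the copies did not overlap between the groups, at 1773 to 2258 in M5_O5 and 2273 to 3498 in M5.

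S100A8 and S100A9, whose proteins pair with each other, were called and not called, respectively. S100A8 had 3063, 2642, 2800 and 3010 CPM in M5_O5 and 3397, 3782, 4242 and 3720 CPM in M5. Every M5_O5 library lay below every M5 library (two-sided exact permutation p = 0.0286), as also in S100A10 and S100A11 but in no other member. Over all genes tested, such separation in this direction occurred for 15.8%. The log2 fold change of S100A8 was -0.39 (SE 0.076, adjusted p = 0.00122, edgeR) and fell short of the threshold once the expression trend was removed, at -0.17 (adjusted p = 0.0787, edgeR).

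S100A9 was at 6500, 7361, 7583 and 6548 CPM in M5_O5 and at 6201, 8891, 8010 and 7633 CPM in M5. The lowest and the highest of the 8 values both came from M5 libraries, so the groups overlapped. Its log2 fold change was -0.13 (95% interval -0.35 to 0.08, adjusted p = 0.302, edgeR), an interval that holds no change and overlaps that of S100A7. The result turned on M5 replicate 1: without it, S100A9 was called lower in M5_O5, at -0.23 on the log2 scale (adjusted p = 0.0182, edgeR), in a fit that called 19.9% of all genes lower. With the expression trend removed, the value was 0.11 (adjusted p = 0.134, edgeR).

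Ratios taken within a library do not depend on how libraries are scaled to each other. Relative to S100A9, S100A7 was lower in M5_O5, with TPM ratios of 0.391, 0.495, 0.465 and 0.444 against 0.542, 0.647, 0.645 and 0.558 in M5. The groups did not overlap, and the mean log2 ratio differed by -0.42 (two-sided exact permutation p = 0.0286, 0.171 after Benjamini-Hochberg adjustment over the 6 ratios compared). The ratio of S100A8 to S100A9 was 1.09, 0.972, 0.905 and 1.12 in M5_O5 and 1.32, 1.04, 1.25 and 1.21 in M5, a log2 difference of -0.24 (exact permutation p = 0.0857, adjusted 0.171). Here M5 replicate 2 fell within the M5_O5 range. S100A7 against S100A8 did not separate the groups (log2 difference -0.18, exact permutation p = 0.343, adjusted 0.371), nor did S100A4 against S100A6 (log2 difference -0.26, exact permutation p = 0.371, adjusted 0.371). None of the 6 ratios passed the adjusted threshold. A single ratio without overlap cannot pass it, as 0.0286 is the smallest exact permutation p and becomes 0.171 when adjusted over 6 ratios.

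**Figure D3:**
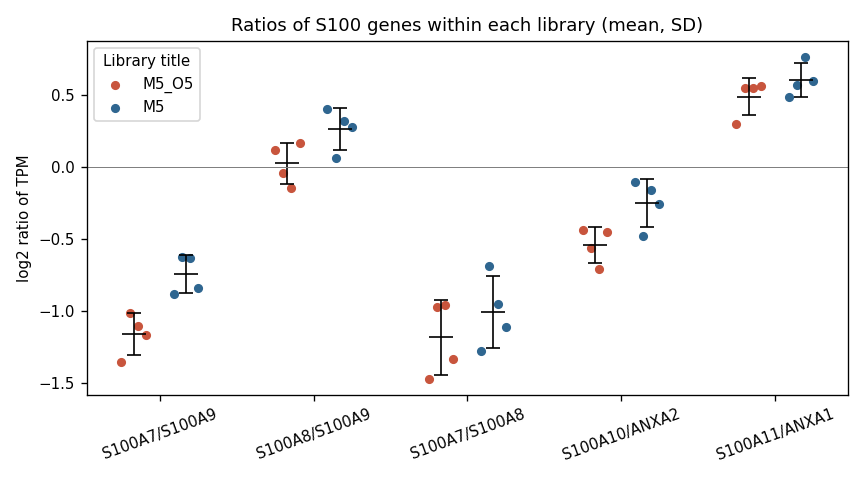
log2 ratio of TPM within each library for 5 pairs of genes, with 1 point per library, M5_O5 in red and M5 in blue, and the mean and SD of each group of 4 in black. Only the ratio of S100A7 to S100A9 has no overlap between groups, at -1.36 to -1.02 in M5_O5 and -0.88 to -0.63 in M5.

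S100A10 (p11), which does not need calcium and forms a heterotetramer with annexin A2 at the plasma membrane, was lower in M5_O5. Its levels were 449.4, 415.1, 384.9 and 450.9 CPM in M5_O5 and 501.0, 507.5, 585.9 and 560.3 CPM in M5, with no overlap (exact permutation p = 0.0286). The log2 fold change was -0.34 (SE 0.069, adjusted p = 0.00159, edgeR), and -0.18 with the expression trend removed (adjusted p = 0.0477). ANXA2, its partner, had a log2 fold change of -0.05 (SE 0.079, adjusted p = 0.616, edgeR). The ratio of S100A10 to ANXA2 ran from 0.612 to 0.737 in M5_O5 and from 0.717 to 0.93 in M5, a log2 difference of -0.29 that the libraries did not separate (exact permutation p = 0.0857, adjusted 0.171).

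S100A11, a partner of annexin A1 in membrane and cornified envelope biology, behaved in the same direction. It stood at 648.8, 712.6, 708.4 and 750.1 CPM in M5_O5 and at 825.2, 938.0, 1069 and 909.0 CPM in M5. Again no M5_O5 library reached the lowest M5 library (exact permutation p = 0.0286), and the log2 fold change was -0.41 (SE 0.075, adjusted p = 0.000883, edgeR). It remained called with the expression trend removed, at -0.23 (adjusted p = 0.0112, edgeR). ANXA1 was lower as well, at -0.29 on the log2 scale (SE 0.057, adjusted p = 0.00153, edgeR), and the ratio of S100A11 to ANXA1 differed by -0.12 on the log2 scale (exact permutation p = 0.314, adjusted 0.371).

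S100A2, a nuclear member that binds p53 and is a target of p63 in basal keratinocytes, was called by a small margin. Its levels were 967.4, 785.7, 813.1 and 774.3 CPM in M5_O5 and 850.5, 1090, 1088 and 950.3 CPM in M5. M5_O5 replicate 1 lay above 2 of the M5 libraries. The log2 fold change was -0.25 (SE 0.089, adjusted p = 0.0373, edgeR). This call was lost with library size scaling, with both limma fits on log2 TPM, with the expression trend removed and without any 1 of 6 libraries: M5_O5 replicates 2, 3 and 4 and M5 replicates 2, 3 and 4, with fold changes of -0.28 to -0.21 in these 6.

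The other members overlapped between the groups. S100A6 had a log2 fold change of -0.08 (95% interval -0.22 to 0.05, adjusted p = 0.309, edgeR), with 575.7 to 649.6 CPM in M5_O5 and 585.7 to 687.2 in M5. S100A16, at 262.5 to 303.1 and 271.5 to 327.7 CPM, gave -0.14 (95% interval -0.28 to 0.00, adjusted p = 0.113, edgeR), which became -0.20 (adjusted p = 0.0101, edgeR) without M5 replicate 1 and 0.00 with the expression trend removed. Neither interval reached the value of S100A7, a comparison that leaves out the error of S100A7.

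S100A14 lay at 445.7 to 512.5 CPM in M5_O5 and 388.5 to 507.5 CPM in M5. Its log2 fold change was 0.04 (SE 0.078, adjusted p = 0.735, edgeR), and 0.20 with the expression trend removed (adjusted p = 0.0278, edgeR). It was also called higher by limma on log2(TPM + 1), which called 26.2% of all genes higher. For S100A4, with 1.72 to 2.41 CPM in M5_O5 and 1.78 to 3.14 in M5, the interval of -0.77 to 0.10 around a log2 fold change of -0.34 was wide (adjusted p = 0.213, edgeR). With the expression trend removed it was -0.57 (adjusted p = 0.043, edgeR). Its low count is what limits the precision here.

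**Figure D4:**
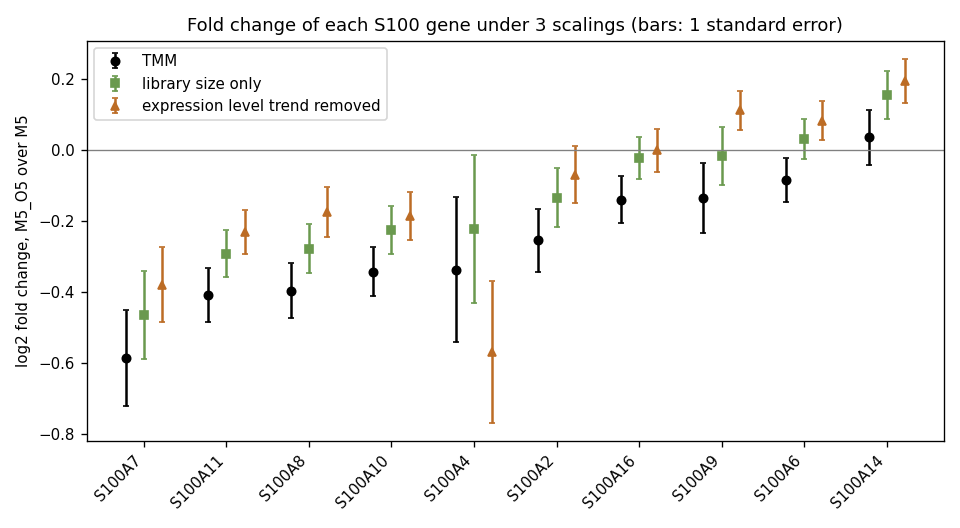
log2 fold change of M5_O5 over M5 for each of the 10 genes under TMM (black circles), library size alone (green squares) and with the expression level trend removed (brown triangles); bars are 1 standard error. S100A7, S100A11, S100A8, S100A10, S100A2 and S100A4 lie below 0 under all 3. S100A9 and, barely, S100A16 change sign with the trend removed, and S100A6 does so with library size alone too.

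The 10 genes together summed to 14680 ± 519 CPM (SD, n = 4) in M5_O5 and 17560 ± 2170 in M5. M5 replicate 1, at 14630 CPM, lay within the M5_O5 libraries, and the other M5 libraries lay between 17220 and 19400 CPM. The log2 difference of -0.25 did not pass (two-sided exact permutation p = 0.0857).

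On the RefSeq annotation of GRCh38.p14 the genes fall into groups along chromosome 1. S100A10 and S100A11 are neighbours, and 47 coding genes, from TCHHL1 to PGLYRP4, separate them from S100A9. Then follow S100A12, S100A8, S100A7A, S100A7, S100A6, S100A5, S100A4, S100A3, S100A2, S100A16, S100A14, S100A13 and S100A1. Between S100A9 and S100A6, 4 successive genes (S100A12, S100A8, S100A7A and S100A7) were lower in M5_O5, flanked by S100A9 and S100A6, which were not called. From S100A6 to S100A13, S100A2 was the only gene called. This order is a description, and no test of position was made.

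**Figure D5:**
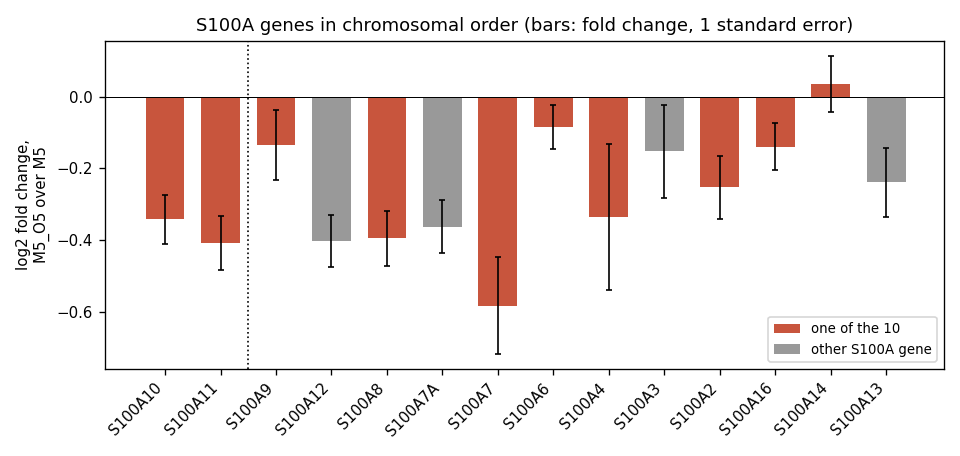
log2 fold change of M5_O5 over M5 for the 14 S100A genes of chromosome 1 that were tested, in the order of the RefSeq annotation, with the 10 genes of the family group in red, others in grey and 1 standard error as bars; the dotted line marks the stretch of 47 other coding genes. Values run from -0.58 for S100A7 to 0.04 for S100A14.

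The sequences before the start sites of S100A7, S100A8, S100A10 and S100A11, the members called lower under both TMM and library size scaling, are shown with those of the copy S100A7A and of S100A9 so that the start regions can be compared. They are the 100 bases before the start in RefSeq on GRCh38.p14, read 5′ to 3′ on the strand of the gene, with TATAAA in capitals and, in S100A11, a match to the C/EBP pattern TTGCNNAA, which reads so on the opposite strand. S100A8 has 3 listed starts, and the start shown is the one closest behind a TATAAA.
S100A7, chr1:153460652-153460751, minus strand: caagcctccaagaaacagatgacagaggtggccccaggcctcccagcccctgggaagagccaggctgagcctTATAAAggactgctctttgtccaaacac
S100A7A, chr1:153416420-153416519, plus strand: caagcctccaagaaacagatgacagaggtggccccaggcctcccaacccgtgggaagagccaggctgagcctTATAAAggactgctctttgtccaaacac
S100A8, chr1:153391074-153391173, minus strand: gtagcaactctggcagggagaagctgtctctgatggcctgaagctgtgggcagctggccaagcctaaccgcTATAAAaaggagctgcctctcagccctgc
S100A9, chr1:153357754-153357853, plus strand: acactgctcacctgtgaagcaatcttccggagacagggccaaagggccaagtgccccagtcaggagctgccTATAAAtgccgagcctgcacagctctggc
S100A10, chr1:151993860-151993959, minus strand: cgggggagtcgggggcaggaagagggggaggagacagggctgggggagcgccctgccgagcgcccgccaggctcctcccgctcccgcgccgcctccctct
S100A11, chr1:152037005-152037104, minus strand: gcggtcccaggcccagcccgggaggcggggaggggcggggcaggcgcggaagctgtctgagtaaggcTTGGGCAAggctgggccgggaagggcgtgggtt

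S100A7 and S100A7A matched at 98 of these 100 bases and at 241 of the 250 bases before the start. In windows of 250 bases, TATAAA on the strand of the gene occurred in 4 of the 10 members (S100A4, S100A7, S100A8 and S100A9). A member was counted if any of its windows held it, and the 10 members have 14 windows. Of 35116 RefSeq windows counted singly, 6.8% held it, so these shares are not directly comparable. Its first base lay 28 bases before the start in S100A7 and S100A7A, 29 in S100A9 and in the S100A8 window shown, and 31 in S100A4. Of the 3 S100A8 windows, 1 did not hold it. S100A10 and S100A11, whose log2 fold changes were close to that of S100A8 under TMM, had no TATAAA and instead held 24 and 15 CpG dinucleotides in 250 bases, at a GC content of 71.2% and 63.6%, against 2 CpG in the S100A8 window and 1 in that of S100A7. The median GC content over all windows was 58.0%.

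Patterns that inflammatory factors are known to bind were searched on both strands of the same windows. TTCNNNGAA, a STAT pattern found in 6.57% of all windows, was in none of the members' windows. TGANTCA, an AP-1 pattern in 6.57% of windows, was in that of S100A2 at 1 of its 2 starts. TTGCNNAA, a C/EBP pattern in 9.05% of windows, was in that of S100A11, and an NF-kB pattern in 5.21% of windows was in that of S100A14. These matches describe letters and not binding.

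Genes whose profiles over the 8 libraries were most like those of the 3 most abundant members were taken by the root mean square difference of centred log2 CPM, among 8671 genes with at least 10 CPM on average. For S100A7 these included SPRR1B, a cornified envelope precursor (0.071, against a median of 0.372 over all genes), and PLP2 (0.117). SPRR1B ran from 165.5 to 239.8 CPM in M5_O5 and from 239.7 to 379.0 in M5. For S100A8 they were DCUN1D3 (0.05), RPL36AL (0.052) and B2M, the light chain of MHC class I (0.058), against a median of 0.229. For S100A9 they were GAPDH, the glycolytic enzyme (0.03), STX10 (0.039) and RPS15A, a ribosomal protein (0.039), against a median of 0.201.

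Outside the 10, 5 of the other S100 genes could be tested. Of these, 2 were lower in M5_O5 and 0 higher, beside 17.6% and 19.5% of all genes tested. Besides S100A7A, S100A12, a member best known from neutrophils, was lower, at 163.5, 135.0, 129.6 and 153.5 CPM in M5_O5 and 180.0, 187.4, 206.2 and 194.7 in M5, with no overlap (log2 fold change -0.40, adjusted p = 0.000807, edgeR). On the same list of neutrophil and monocyte markers CD68, a lysosomal protein abundant in macrophages, was lower too, at 54.8 ± 7.85 CPM (SD, n = 4) in M5_O5 and 74.9 ± 11.8 in M5 (log2 fold change -0.45, adjusted p = 0.00675, edgeR). CD14 did not pass, at 34.1 ± 2.53 and 37.6 ± 1.76 CPM (adjusted p = 0.121, edgeR), and PTPRC and CSF3R were at 0. The part of these markers in the difference of S100A12 was not tested. S100A13, at -0.24 on the log2 scale, did not pass (adjusted p = 0.0638, edgeR) but was called without M5 replicate 1 (-0.34, adjusted p = 0.0015, edgeR). Of the S100-fused genes, large proteins of the late epidermis with an S100 domain at their start, 3 of 7 could be tested. Beside 19.5% of all genes tested, 1 of these was higher.

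That gene was FLG, which encodes filaggrin. It went from 12.85, 9.47, 8.62 and 9.28 CPM in M5 to 15.4, 15.0, 16.3 and 13.2 CPM in M5_O5. The groups did not overlap, and the log2 fold change was 0.58 (SE 0.119, adjusted p = 0.0018, edgeR), opposite in direction to S100A7. TCHH (0.30) and HRNR (0.07) did not pass on the log2 scale (adjusted p = 0.17 and 0.864, edgeR).

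Among 23 genes of known S100 partners and receptors 19 could be tested, with a median log2 fold change of -0.05. Of these, 8 were lower and 2 higher, beside 17.6% and 19.5% of all genes tested. TRPV6, an epithelial calcium channel that S100A10 helps to bring to the membrane, was the only one past 2-fold. It had 4.13, 2.81, 3.97 and 3.57 CPM in M5_O5 and 1.75, 1.31, 0.72 and 0.81 CPM in M5, on 11 to 71 reads per library (log2 fold change 1.67, SE 0.240, adjusted p = 0.000131, edgeR). KCNK3, a potassium channel also known to bind S100A10 and named here after its values were seen, went the other way, at 3.20 to 3.68 CPM in M5_O5 and 4.75 to 7.79 CPM in M5 (log2 fold change -0.81, adjusted p = 0.00119, edgeR). The receptor of S100 proteins AGER averaged 1.38 and 1.37 CPM, and TLR4, a receptor of calprotectin, had at most 0.535 CPM and was not tested.

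Annexin A2 with S100A10 binds plasminogen at the cell surface, and 5 genes of plasminogen activation were tested. SERPINB2, an inhibitor of the activators, was at 327.8, 278.8, 293.4 and 271.3 CPM in M5_O5 and at 130.0, 140.0, 135.2 and 135.8 CPM in M5. It was more than 2-fold higher in M5_O5 (log2 fold change 1.11, SE 0.063, adjusted p = 6.77e-08, edgeR). Of the 5, 3 were lower, beside 17.6% of all genes tested. Among the 3 were PLAU, the urokinase activator (-0.45), and its receptor PLAUR (-0.44), both log2 fold changes of genes named after their values were seen. Their adjusted p-values were 0.00631 and 0.000894 in edgeR.

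Calcium sensors of other families were called in both directions. Of 14 tested, with a median log2 fold change of -0.04, 3 were lower and 4 higher, beside 17.6% and 19.5% of all genes tested. CAPN2, a calpain subunit, had -0.31 (adjusted p = 0.00053, edgeR), and CAPN1 had -0.07 (adjusted p = 0.435, edgeR). Of 12 other antimicrobial genes tested, 4 were lower and 1 higher, beside the same shares of all genes. Among the most abundant of these, PI3 (elafin) was lower at 2360 ± 94.2 against 2960 ± 331 CPM (adjusted p = 0.00459, edgeR), SLPI was lower at 365 ± 27.3 against 502 ± 40.4 CPM (adjusted p = 0.000187, edgeR), and LCN2 did not pass at 1990 ± 231 against 2280 ± 318 CPM (adjusted p = 0.148, edgeR). PI3 was not called with the expression trend removed.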

How the data were processed

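RNA of 8 HaCaT libraries, 4 titled M5_O5 and 4 titled M5, was sequenced. The authors deposited, per transcript and library, an estimated count that was not normalised, TPM (scaled to a fixed sum) and FPKM (divided by transcript length and library size), with averages of the replicates that were not used. Their methods name HISAT2 and StringTie. The submitters' processing notes list HISAT2 2.1.0, Bowtie2 2.2.5, RSEM 1.2.8 and mm10, a mouse build, for these human cells, so the build behind the table is unsettled and no coordinates were taken from it. The use of strand is not given in the sources used here, so overlapping or antisense genes could share reads.

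Estimated counts of 86639 transcripts, 4181 of them further placements of a transcript, were summed to 17131 genes and rounded. Of the transcript values above 0, 90.1% were fractional, so reads shared by copies had been divided. Symbols came from RefSeq, matching 17072 identifiers. The 59 others made up no more than 0.0201% of the counts in any library. Genes kept by filterByExpr (12434) were compared with edgeR 4.0.16 (R 4.3.3), using TMM, its quasi-likelihood test and p-values adjusted by Benjamini-Hochberg. Calls needed an adjusted p-value under 0.05. The biological coefficient of variation was 7.42%. Standard errors were the fold change over the square root of F. Single values and ratios were compared with two-sided exact permutation tests (scipy 1.17.1). Pairs of replicates all differed by more than counting noise, so all libraries were counted.

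The members and gene lists were chosen with earlier results of these data known. Named were all members, the partners in the ratios, the 3 genes most like S100A7, S100A8 and S100A9, and from each list those past 2-fold, otherwise the 3 with the highest mean CPM. Some genes that this rule names are not reported here. Promoter windows were those of RefSeq on GRCh38.p14, which held all 10 members. Alternatives were DESeq2 1.42.0 and its size factors, library size alone, limma 3.58.1 on log2(TPM + 1) and log2(TPM + 0.1), other filters, trends with expression level or transcript length removed, a block for the replicate number, and leaving out each library. On simulated counts the tests were tested on genes with known changes.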

Additional observations from a re-analysis of the deposited data

Results flagged for a closer look

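In 32 groups of 4 libraries, the members' CPM and the 6 ratios were searched for a library far from the other 3. In TPM the log2 ratio of S100A11 to ANXA1 in M5_O5 replicate 1 was 0.2962, while the other M5_O5 libraries lay between 0.5454 and 0.5637. In gene counts replicate 1 was not set apart in this way. There the log2 ratios of M5_O5 replicates 1 to 4 were -1.77, -1.695, -1.593 and -1.569. Chance flags about 1 in 20 groups, or 1.6 of 32.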

How the results depend on the processing

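The median log2 fold change of the 10 members, -0.29, stayed below 0 under all alternatives run. It moved to -0.177 with library size alone, -0.16 and -0.164 with limma on log2(TPM + 1) and log2(TPM + 0.1), and -0.121 with the expression trend removed. The median of all genes, 0.012 in the main fit, was 0.128, 0.116, 0.135 and -0.005 in the same alternatives, in that order. With both limma fits and with the expression trend removed, 1 member was called higher (S100A14). Without both replicates 1, an alternative chosen after the data were seen, 8 members were called lower, beside 21.6% of all genes, and 5 of the other S100 and S100-fused genes were called, 2 of them higher. Among those other genes, with 3 called and 1 higher, 2 were higher with library size alone, with both limma fits and with the block. Leaving out 1 library gave 3 to 5 called, of which 1 to 2 were higher. Of the 50 tested genes of the partner, plasminogen, calcium sensor and antimicrobial lists, 18 were lower and 8 higher, beside 17.6% and 19.5% of all genes. With library size alone 11 were lower and 14 higher, beside 8.11% and 31% of all genes. With limma on log2(TPM + 1) 11 were lower, beside 6.12%. With the expression trend removed 13 were higher, beside 16.3%, and leaving out 1 library gave 5 to 9 higher.

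Fold changes that were not called turned their sign in 4 members. S100A6 went to 0.033 with library size alone, 0.06 with both limma fits and 0.084 with the expression trend removed. With that trend removed S100A9 went to 0.113 and S100A16 to 0.00032. S100A14 went to -0.051 with the transcript length trend removed and to -0.0077 without both replicates 1, and ranged from -0.044 to 0.076 when 1 library was left out.

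The correlations of same-numbered libraries' deviations were 0.209, 0.099, -0.004 and 0.013, and those of differently numbered libraries ran from -0.201 to 0.206. Such weak values cannot show whether or not the numbers pair the samples. With the replicate block 5 members were called lower, as without it, beside 20.5% of all genes, and no member's call changed. In either direction the block fit called 42.3% of all genes, against 37.1% without the block. The SE of S100A7 was 0.0604 with the block and 0.135 without it. The cause of the changes above was not tested. Depth limits S100A4, with 27 to 47 reads, and no unstimulated culture bounds the levels.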

Other observations

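Fibroblast markers summed to 33.0 to 36.6 CPM in M5_O5 and 43.1 to 58.3 in M5, nearly all of it COL1A1, a collagen chain (log2 fold change -0.58, adjusted p = 0.000168, edgeR). Endothelial markers summed to 3.10 to 3.85 CPM in M5_O5 and 0.249 to 1.11 in M5. CDH5, the cadherin of endothelial junctions, carried that difference, at 2.41 to 3.38 CPM against 0.19 to 0.46 CPM (log2 fold change 3.18, adjusted p = 2.57e-06, edgeR), while PECAM1 had at most 0.0653 CPM. Melanocyte markers summed to 1.45 to 2.62 CPM, and MITF did not pass (adjusted p = 0.0501, edgeR).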
